A study of Mus musculus with 6 samples.

Results

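The cytosolic ribosomal protein genes were examined as 1 gene family in peak lists of Gli3 and Hand2 from the embryonic mouse face. Members were the protein-coding genes of the GENCODE vM21 annotation whose symbol is Rpl or Rps followed by a number and at most 1 of the letters a, l, x or y, together with Rplp0, Rplp1, Rplp2 and Rpsa. This rule gave 80 members of 21951 protein-coding genes, and the other 21871 genes served as the background. A promoter peak was a peak whose midpoint lay within 1 kb of the annotated 5′ end of the gene.

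The lists came from ChIP-seq with an anti-FLAG M2 antibody on E11.5 tissue, according to the sample labels and the study's methods, whereas the description of the series gives E10.5. The 3 groups were Gli3 in the mandibular prominence (MNP) and Gli3 in the whole face, both from Gli3 3XFlagbio embryos, and Hand2 in the MNP from embryos labelled Hand2 3XFlagbio, an allele that the study's methods call Hand2 3xFlag. All were of strain CD1, with 2 biological replicates per group, each made from pooled tissue, and a mock ChIP of wild-type tissue served as the study's control. The FLAG tag sits in the endogenous gene, so that binding was assayed in every cell of the dissected tissue that makes the TF, and the whole face includes the MNP.

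The deposited lists hold positions of peaks shared by both replicates, without heights, p-values or reads. They contained 5427 peaks for Gli3 in the MNP, 5752 for Gli3 in the whole face and 59583 for Hand2 in the MNP, with median widths of 577, 222 and 451 bp. Every entry named a peak of each replicate, and because the lists are merged, no spread between embryos can be given. The depth behind the peaks is unknown, and a gene without a promoter peak was not called in both replicates, which is not evidence of absent binding. All 5752 whole face entries also named a mock and an input of each replicate, against 0 of the 5427 Gli3 MNP and 0 of the 59583 Hand2 MNP entries, and the part of this in differences between the lists was not tested. The mock ChIP itself was not analysed here.

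Ribosomal proteins assemble with ribosomal RNA into the large (Rpl) and the small (Rps) subunit of the cytosolic ribosome, and Rplp0, Rplp1 and Rplp2 form the stalk that recruits translation factors. Their genes are short, are transcribed at high levels in nearly all cells and often host small nucleolar RNAs (snoRNAs) in their introns. Transcription starts within a pyrimidine tract at most of them, the 5′ terminal oligopyrimidine (TOP) element, which couples translation of these mRNAs to growth signals. Gli3 is the zinc finger TF that mediates much of the transcriptional response to Hedgehog signaling, and Hand2 is a bHLH TF that patterns the mandibular arch and binds E-boxes.

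A few sequences carry the points described here. They are from the GRCm38.p6 reference, 5′ to 3′, and positions are relative to the annotated 5′ end, positive inside the gene. The first set shows 4 matches to a Gli-binding 8-mer under the promoter peaks of members, because these were matches to the motifs that Gli3 itself recognizes. GACCACCC is the canonical Gli-binding motif (cGBM) and GACCTCCC a divergent one (dGBM), and the match is in capitals with 11 bases on either side.
Rpl8, exon, chr15:76905061-76905090, minus strand: gttcatatgccGACCACCCgcgtcttcaag
Rpl15, intron, chr14:18270241-18270270, plus strand: ggagtgttataGACCACCCacatcgtgacc
Rps21, intron, chr2:180257498-180257527, minus strand: catgtgaccgcGACCTCCCcaactgcgccc
Rps27, exon, chr3:90213614-90213643, minus strand: ccggcggtgacGACCTCCCtacgagaacat

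The second set shows 30 bases around the start of members with the longest pyrimidine tracts, which are in capitals. Rpl26, Rpl4 and Rpl8, the last tied with Rps15, had the longest tracts among members with a Gli3 MNP promoter peak, and Rpl32, Rpl31 and Rpl37a among members without one.
Rpl26, chr11:68901579-68901608, plus strand: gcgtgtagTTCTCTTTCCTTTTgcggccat
Rpl4, chr9:64173361-64173390, plus strand: gtgacaagTCTTTCCTTTTCCTgtgggagc
Rpl8, chr15:76904071-76904100, plus strand: gacccgtctaTTTCCTCTTTCggccttgct
Rpl32, chr6:115808728-115808757, minus strand: gccgccgCCTCTTCCTTCTTCCTCggcgct
Rpl31, chr1:39367824-39367853, plus strand: ctcgccacaCCTCTTCCTCCTCgcctcccc
Rpl37a, chr1:72711274-72711303, plus strand: cgcattgcgTCCCTTCCTCTTCggacttgg

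Rpl27 is shown as a stretch under a peak of all 3 lists. Bases inside the nearest promoter peak of every list are in capitals, 10 flanking bases are added, and the print stops 20 bases into the gene.
Rpl27, chr11:101442144-101442317, plus strand: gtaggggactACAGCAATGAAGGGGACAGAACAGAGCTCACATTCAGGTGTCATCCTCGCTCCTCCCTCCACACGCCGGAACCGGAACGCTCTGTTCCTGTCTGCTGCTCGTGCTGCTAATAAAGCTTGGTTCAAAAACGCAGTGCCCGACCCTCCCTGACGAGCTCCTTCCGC

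To ask how often each list reached the promoters of the family, members with a promoter peak were counted. Gli3 MNP peaks lay at 45 of 80 members, or 56.2% (95% Wilson interval 45.3 to 66.6%), against a background of 15.3% of the other protein-coding genes. Gli3 whole face peaks lay at 3 of 80 members, or 3.75% (1.28 to 10.5%), against 5.37% of the others. Hand2 MNP peaks lay at 25 of 80 members, or 31.2% (22.2 to 42.1%), against 30.0% of the others. The interval of the members thus lay above the background for Gli3 in the MNP and included it for the other lists. These intervals cover counting error only, and no test was run across genes because the family was chosen with earlier results of these data known.

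Seen by combination, 17 members had both a Gli3 MNP and a Hand2 promoter peak (21.2%, against 10.3% of other genes), and 28 had a Gli3 MNP peak without a Hand2 one (35%, against 5.02%). A Hand2 peak without a Gli3 MNP peak was found at 8 members (10%, against 19.7%). The 3 members with a whole face peak, Rpl27 and Rps29 among them, had a peak in all 3 lists (3.75%, against 2.19%). No list had a promoter peak at 27 members (33.8%, against 64.0%). At other genes with a Gli3 MNP promoter peak, a Hand2 promoter peak was the more frequent companion, while at the members Gli3 peaks without one outnumbered those with one.

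**Figure D1:**
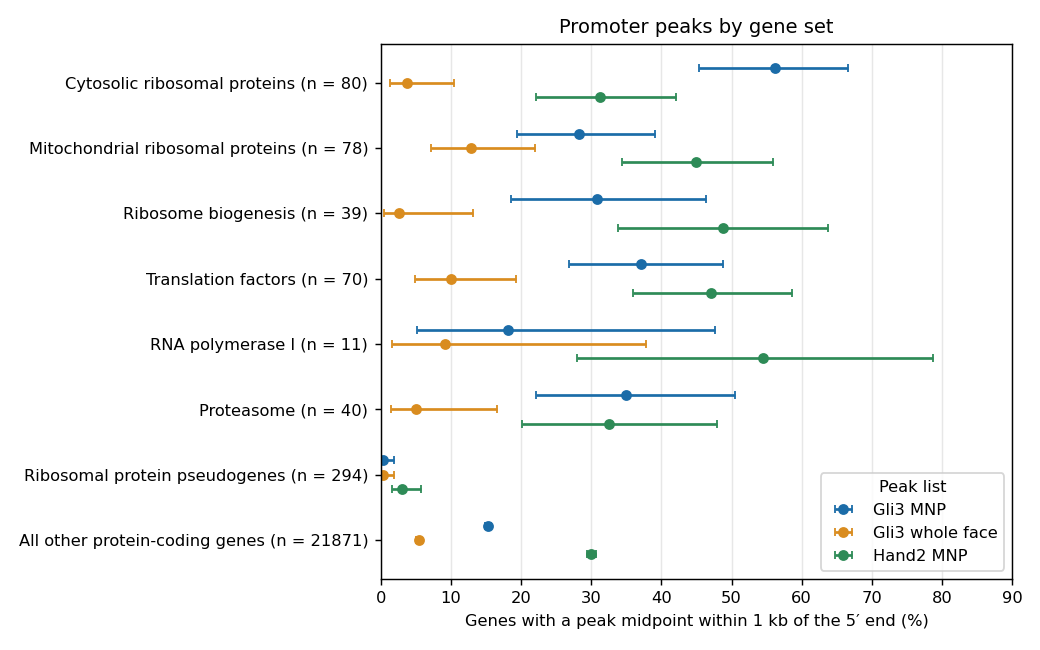
Share of genes with a promoter peak (percent, x axis) in each list (colors) for the ribosomal protein genes, comparison lists and all other protein-coding genes (y axis), with points for the share and bars for the 95% Wilson interval. The Gli3 MNP share was 56.2% in the ribosomal protein genes and 15.3% in all other genes, while the Hand2 MNP shares were 31.2% and 30.0%.

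Among the large subunit genes other than the stalk, 21 of 46 had a Gli3 MNP promoter peak and 12 of 46 a Hand2 one. Those with Gli3 and no Hand2 promoter peak included Rpl4, Rpl5, Rpl8, Rpl12, Rpl13, Rpl15, Rpl19, Rpl21, Rpl22, Rpl24, Rpl26 and Rpl28. Rpl5, which binds the 5S ribosomal RNA and, with Rpl11, the Mdm2 protein, had a 655 bp Gli3 peak from −33 to +621. Its partner Rpl11 had a 763 bp Gli3 peak from −4 to +758 and a 397 bp Hand2 peak from +8 to +404. Both genes of this pair were under Gli3 peaks that began just before the start and extended into the gene. This shape was not particular to the pair. The median edges of Gli3 MNP promoter peaks were −71 and +682 at members and −96 and +596 at other genes. Rpl38, whose loss in mice alters axial skeletal patterning, had a Gli3 peak centered at +699, in an intron, and the most distal Hand2 peak of the family, at +793. Rpl7 was the exception in position: its 1388 bp Gli3 peak was the widest of the family and ended 15 bp before the gene, and Rdh10, a retinol dehydrogenase gene, had its 5′ end nearer to the midpoint. Rpl4 had 2 Gli3 MNP promoter peaks, at +137 and −564.5.

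Among the small subunit genes, 21 of 31 had a Gli3 MNP promoter peak and 12 of 31 a Hand2 one. Members with Gli3 and no Hand2 promoter peak included Rps7, Rps9, Rps12, Rps15, Rps15a, Rps16, Rps18, Rps23, Rps27a and Rpsa. Rps27a, which encodes ubiquitin fused to a ribosomal protein, had a 624 bp Gli3 peak from +59 to +682, nearer to the 5′ end of Clhc1 than to its own. Rps6, the substrate of S6 kinase, had a Gli3 peak of 1058 bp centered at +259.5 and a Hand2 peak of 311 bp centered at +65. Rps7 had the Gli3 peak centered nearest to the start, at +38, followed by Rps29 at +56.5, Rps27l at +85, Rps12 at +114 and Rpl4 at +137. No promoter peak in any list was found at 6 of 31 small subunit genes (19.4%) and 21 of 46 large subunit genes (45.7%), against 64.0% of other genes. The large subunit count includes Rpl3l, Rpl10l and Rpl39l, copies with restricted expression. This difference between the subunits was not tested. The counts rest on the gene 5′ end used. With any annotated transcript start, Rps2 and Rps10 had a Hand2 peak within 1 kb and Rpl3 a Gli3 MNP peak.

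All 3 stalk genes had a Gli3 MNP promoter peak. It was centered at +220 in Rplp0, at +217.5 in Rplp1 and at +314 in Rplp2, with widths of 559, 590 and 589 bp. Only Rplp2 of the stalk genes also had a Hand2 peak, centered at +309, which covered 79.6% of its Gli3 peak.

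The 8 members with a Hand2 and no Gli3 MNP promoter peak were Rpl23, Rpl36a, Rpl37, Rpl37a, Rps19, Rps24, Rps25 and Rps28. This holds for the gene 5′ end: with any annotated transcript start, Rps24 also had a Gli3 MNP peak within 1 kb. The peaks of Rps19, Rps24, Rpl23 and Rps28 covered the 5′ end, with midpoints of +53, −34.5, −74 and −27.5, as did those of Rpl37 (−114) and Rpl37a (+137). Those of Rpl36a and Rps25 lay wholly inside the gene, at +618.5 and +633.5. For Rps24, Rps25 and Rps28, a neighboring gene (Polr3a, Trappc4 and Ndufa7) had its 5′ end nearer to the midpoint, so these peaks cannot be assigned to the member alone.

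The copies with restricted expression were among the 27 of 80 members without a promoter peak in any list (33.8%, against 64.0% of other genes). Lack of a peak was thus not particular to these copies. Rpl3l, the paralog of Rpl3 in heart and skeletal muscle, and Rpl10l and Rpl39l, paralogs with high expression in testis, had no promoter peak in any list. The paralog Rps27l, a p53 target, differed from these: its Gli3 peak of 977 bp was centered at +85 and its Hand2 peak of 1009 bp at +12, so that Hand2 covered 94.2% of the Gli3 peak. Its paralog Rps27 had narrower peaks, of 460 bp at +152.5 for Gli3 and of 246 bp at +80.5 for Hand2.

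The promoter peaks of Gli3 at the members were offset into the gene. Their midpoints had a median of +314 bp (quartiles 220 and 411.5, range −708.5 to 962), against +241.5 at the other genes with a Gli3 MNP promoter peak. The midpoint lay downstream of the 5′ end at 44 of 45 members (97.8%), against 79.5% of the others. The peak covered the 5′ end at 31 of 45 (68.9%), against 63.4%. It lay wholly downstream of the 5′ end at 13 of 45, a share close to that of the others (937 of 3341). It lay wholly upstream at 1 of 45, Rpl7, against 285 of 3341. The median peak ran from −71 to +682. Hand2 peaks at members were centered on the start, with a median of +31, against +6.5 at other genes with a Hand2 promoter peak. Of the member peaks, 15 of 25 were downstream (60%, against 51.3% of others). They covered the 5′ end at 18 of 25 (72%, against 73.5%). The midpoints nearest to the start were those of Rpl27 (+9.5), Rps27l (+12), Rps28 (−27.5), Rpl27a (+31) and Rps24 (−34.5). The 3 whole face peaks were all centered upstream, among them at −53 in Rpl27 and −185.5 in Rps29.

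**Figure D2:**
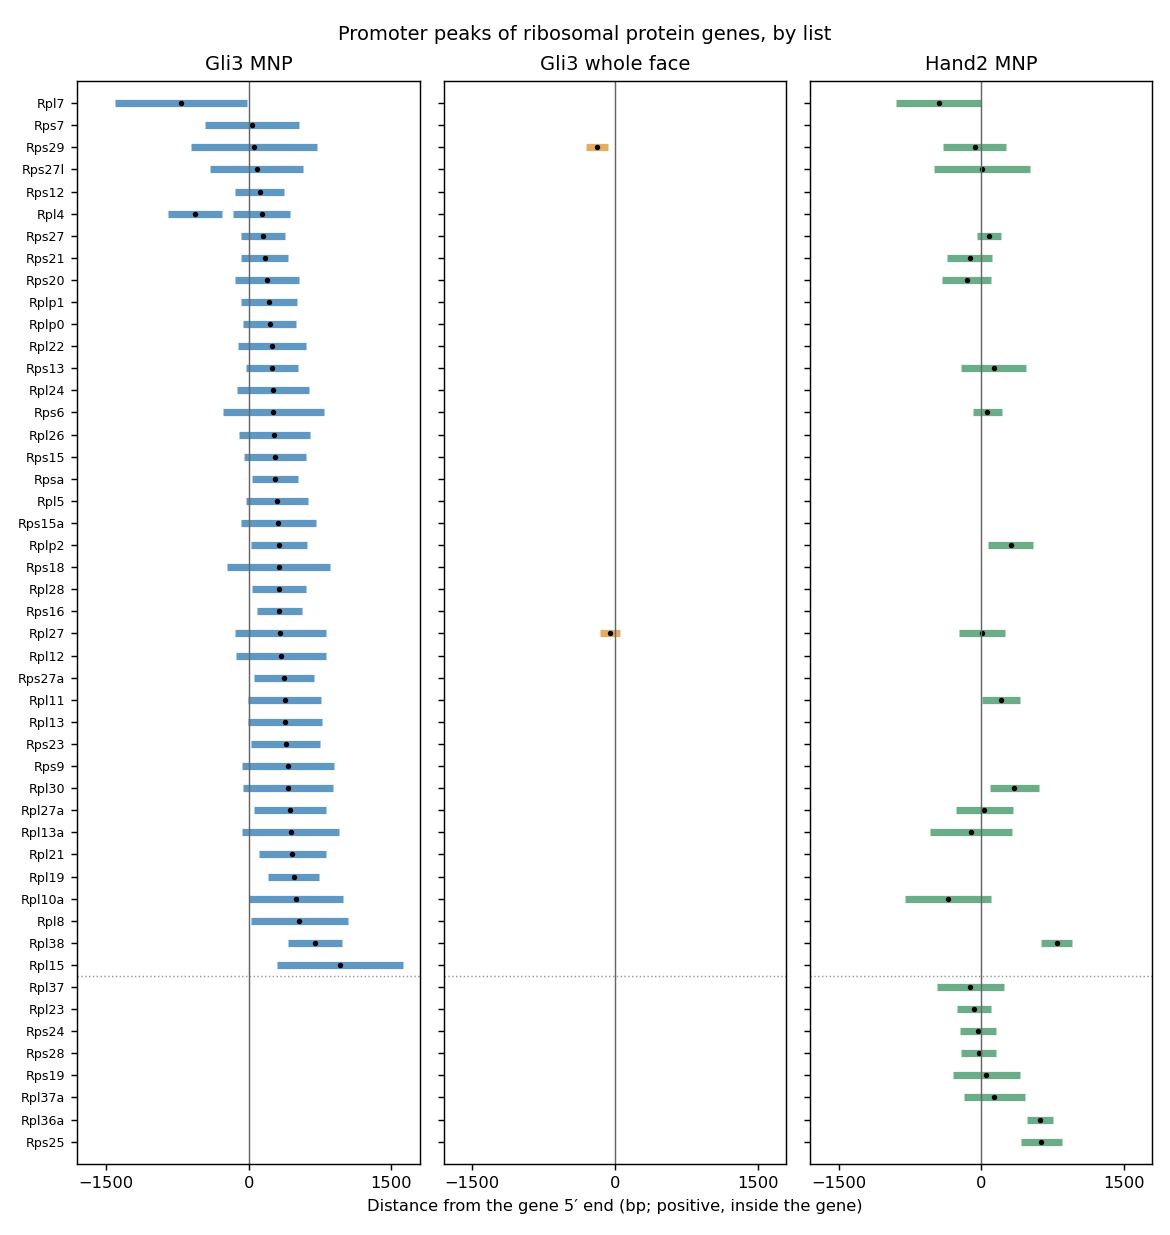
Extent of each promoter peak (bars) and its midpoint (dots) relative to the gene 5′ end (x axis, bp, positive inside the gene) for 48 members with a promoter peak (y axis), with 1 panel per list and the 8 members with a Hand2 and no Gli3 MNP peak under the dotted line. Gli3 MNP peaks lay mostly to the right of the start, with a median midpoint of +314 over all 45 members with one, and Hand2 peaks lay around it, with a median of +31 over all 25.

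The median Gli3 midpoint was +314 at the 17 members with a shared peak and +314.25 at the 28 without. It was +377 at the large subunit genes and +259.5 at the small subunit genes. The midpoint fell in an exon of the member at 31 of 45, in an intron at 13 and upstream at 1, whereas the shares at other genes were 47.4%, 31.8% and 20.8%. Another gene's 5′ end was nearer to the midpoint at 5 of 45 members (11.1%, against 12.5%): Rpl7, Rpl12, Rpl15, Rps18 and Rps27a. Measured from the nearest start of any annotated transcript, the median was +114.5 in members and +91.5 in other genes, and 36 of 47 peaks were downstream. A RefSeq start was found for 60 members. Measured from the one nearest to the 5′ end, the median was +257.5 in members and +211 in other genes, with 32 of 33 downstream. These downstream counts are of members, for which the count from the gene 5′ end was 44 of 45. The downstream share of other genes was not counted from the transcript or RefSeq starts. Whether the higher downstream share of members holds with those starts was therefore not tested.

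Read along the gene, the share of members whose base lay inside a Gli3 MNP peak was highest at +300, with 53.8%. Among all other genes it was highest at +200, with 12.4%, and among other genes with a CpG-rich promoter (defined below) at +150, with 24.3%. Hand2 coverage of members was highest at +100, with 26.2%, and of other genes at 0, with 22.1%. Other genes with a CpG-rich promoter reached a higher Hand2 coverage than the members, 38.8% at 0. Gli3 MNP promoter peaks had a median of 734 bp (460 to 1388) in members and 708 bp in others, and Hand2 peaks 478 bp (246 to 1009) in members and 517 bp in others. The widest Gli3 peaks belonged to Rpl7, Rpl15 (1331 bp), Rps29 (1328 bp) and Rps18 (1083 bp). The 5 widest Hand2 peaks belonged to Rps27l, Rpl10a (904 bp), Rpl7 (890 bp), Rpl13a (859 bp) and Rps19 (711 bp).

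**Figure D3:**
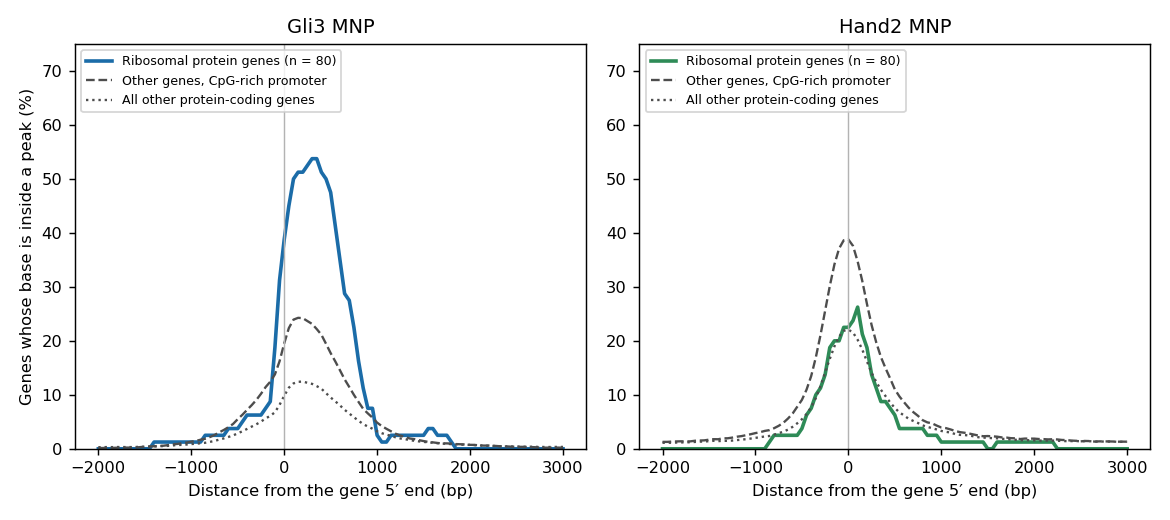
Percentage of genes (y axis) with a given base inside a peak, by distance from the gene 5′ end (x axis, bp), for ribosomal protein genes (solid), other genes with a CpG-rich promoter (dashed) and all other protein-coding genes (dotted). For Gli3 MNP the members reached 53.8% at +300, and for Hand2 MNP 26.2% at +100. Other genes with a CpG-rich promoter reached 24.3% at +150 for Gli3 MNP and 38.8% at 0 for Hand2 MNP.

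The Gli3 and Hand2 peaks were next compared base by base. A Gli3 MNP promoter peak shared at least 1 bp with a Hand2 peak at 17 of 45 members, or 37.8% (25.1 to 52.4%), against 63.9% of other genes with such a peak. The shared peaks included those of Rpl7, Rpl10a, Rpl11, Rpl13a, Rpl27, Rpl27a, Rpl30, Rpl38, Rplp2, Rps6, Rps13, Rps20, Rps21, Rps27, Rps27l and Rps29. Hand2 covered a median of 50% of the Gli3 peak at these members, against 61.5% at the others. Coverage was highest at Rps27l and at Rps13 (91.6%) and lowest at Rpl10a (10.5%), where the Hand2 peak reached from −801 to +102 and the Gli3 peak from −1 to +989. The Hand2 peak lay upstream of the Gli3 peak in the same way at Rpl13a (Hand2 midpoint −106, Gli3 +440), Rps20 (−154 and +197) and Rps21 (−122.5 and +169). Sharing was thus partial at many of these promoters, with the Hand2 part toward the start at those just named. At Rpl38 the Hand2 midpoint (+793) lay farther into the gene than the Gli3 one (+699). At Rps29 the Hand2 midpoint (−67.5) was no nearer to the start than the Gli3 one (+56.5). Over all promoter peaks of other genes the medians were offset in the same way, +241.5 for Gli3 MNP and +6.5 for Hand2.

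Among the 3 members under peaks of all lists were Rpl27, of the large subunit, and Rps29, of the small subunit. At Rpl27 the whole face peak measured 207 bp, and lay within the 478 bp Hand2 peak and almost wholly within the 956 bp Gli3 MNP peak. The stretch common to the lists was 195 bp, from −144 to +50, and contains CCGGAA, the core of ETS sites, in tandem. At Rps29 the common stretch was 230 bp, from −300 to −71, and did not reach the gene. It lay largely in Rn7s1, a gene for the 7SL RNA of the signal recognition particle, which is transcribed by RNA polymerase III in the opposite direction. The whole face peak held 192 bp of Rn7s1, the Hand2 peak 291 bp and the Gli3 MNP peak all 300 bp. The GACCTCCC of Rps29 lies in Rn7s1 as well. 7SL RNA has near-identical copies in the genome, and the treatment of reads that match several copies is not stated, so these peaks are uncertain as peaks of Rps29.

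snoRNA genes lay inside 29 of 80 members (36.2%), against 1.14% of the other genes. Of these 29 members, 17 had a Gli3 MNP promoter peak, against 28 of the 51 members without a snoRNA. Among other genes with a snoRNA the share was 31.6%. The peak itself overlapped a snoRNA at 3 of 45 members (6.67%, against 0.239% of other genes with a Gli3 MNP promoter peak), Rpl13 and Rps20 among them.

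Promoter composition was compared because the family and the background differ in it. A promoter was called CpG-rich when the 500 bp around the 5′ end had a GC content of at least 55% and an observed over expected CpG of at least 0.6. This was so for 58 of 80 members (72.5%), against 44.2% of other genes. Within CpG-rich promoters, a Gli3 MNP peak was found at 36 of 58 members (62.1%), against 28.6% of other genes. A Hand2 peak was found at 22 of 58 (37.9%), against 48.6%, and a whole face peak at 2 of 58 (3.45%), against 9.18%. In this class, 14 of 58 members had both peaks (24.1%, against 19.1%), 22 of 58 a Gli3 MNP peak without a Hand2 one (37.9%, against 9.46%) and 8 of 58 a Hand2 peak without a Gli3 MNP one (13.8%, against 29.4%). The Hand2 share of all members was close to the background, and in CpG-rich promoters it was lower than the background, with an interval (26.6 to 50.8%) that included it. Among promoters that were not CpG-rich, 9 of 22 members had a Gli3 MNP peak, against 4.73% of other genes, and 3 of 22 a Hand2 peak, against 15.3%. The median GC content around the start was 58.5% in members and 57% in others. Members with a Gli3 MNP peak had 59.4% and members without one 56%. Transcript levels were not analysed here, and their part in the result was not tested.

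By chromosome, 11 of the 14 members on chromosome 7 had a Gli3 MNP promoter peak, against 11.3% of the other genes there. On chromosome 4 it was 5 of 5, against 16.1%. These chromosomes are named for their high counts. A smaller share of members had such a peak on chromosome 17 (2 of 7, against 14.9%) and chromosome 1 (1 of 3, against 16.3%). None of the 4 members on the X chromosome (Rpl10, Rpl36a, Rpl39 and Rps4x) had one, against 2.97% of the other X-linked genes. On the autosomes, the share was 45 of 76 members (59.2%), against 15.9%.

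The promoter sequences of the members were then searched for short motifs, as exact matches on both strands in 300 bp from 250 bp before to 50 bp after the 5′ end. CCGGAA was found in 32 of 80 members (40%), against 17.4% of other promoters of the same length and 29.1% of CpG-rich ones. It was present in 19 of 45 members with a Gli3 MNP peak and in 13 of 35 without. GACCACCC was found in 0 of 80 members, against 0.741% (1.01% in CpG-rich ones), and GACCTCCC in 2 of 80 (Rps27 and Rps4x), against 1.25% (1.38%). CAGATG, the Hand2 type of E-box, was found in 13 of 80 (16.2%), against 15.2% of other promoters and 9.54% of CpG-rich ones. CACGTG, the E-box of Myc and USF, was found in 11 of 80 (13.8%), against 7.73% and 11.5%. CANNTG, the general E-box, which includes both of the E-boxes just named, was found in 58.8%, against 70.1% of other promoters and 59.9% of CpG-rich ones. GGGCGG, a site of SP and KLF factors, was found in 45%, against 43.0% of all others and 74.8% of CpG-rich ones. CCAAT, bound by NF-Y, was found in 31.2%, against 39.0% and 37.5%. TATAAA was found in 10%, below the 12.7% of other promoters and above the 5.01% of CpG-rich ones. A YY1 site was found in 2 of 80 members (2.5%), against 1.09% of other promoters and 2.20% of CpG-rich ones, and an NRF1 site in 1 of 80 (1.25%), against 1.22% and 2.37%. CCTCC, part of GACCTCCC, was found in 80%, above the 75.2% of other promoters and below the 86.2% of CpG-rich ones. An absent match says only that these letters are not in the window.

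**Figure D4:**
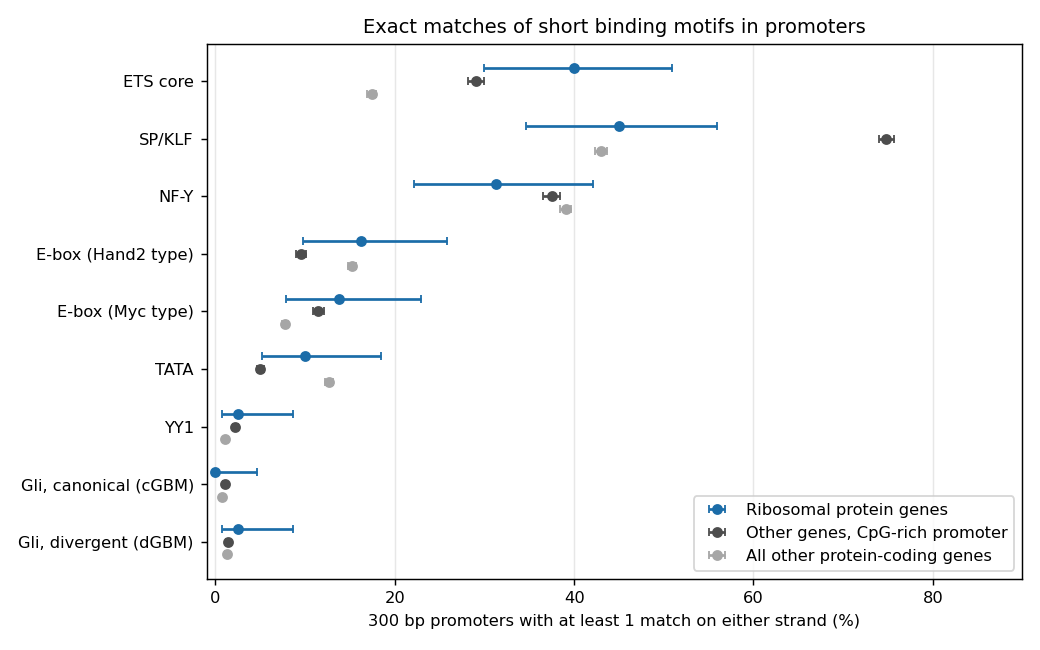
Share of 300 bp promoters with at least 1 exact match on either strand (percent, x axis) to motifs named by their factor (y axis), for ribosomal protein genes, other genes with a CpG-rich promoter and all other protein-coding genes, with 95% Wilson intervals. The ETS core was found in 40% of members and 17.4% of other promoters, and the canonical Gli motif in 0% and 0.741%.

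The Gli 8-mers were next counted under the peaks themselves. Of the 46 Gli3 MNP promoter peaks of members, GACCACCC was found in 2 (4.35%, interval 1.20 to 14.5%, against 7.20% of 3029 promoter peaks of other genes) and GACCTCCC in 3 (6.52%, against 6.31%). In Rpl8 and Rpl15 the GACCACCC lay 465.5 and 173.5 bp from the midpoint of the peak. The GACCTCCC of Rps21 was 33.5 bp from the midpoint, at +136 in an intron, and that of Rps27 was 130 bp away. In the middle 200 bp of the peaks, GACCACCC was found in 0 of 46, against 2.58%, and GACCTCCC in 1 of 46, against 2.11%. In whole peaks, CAGATG was found in 10 of 46 (21.7%, against 23.1%), CACGTG in 14 of 46 (30.4%, against 15.02%) and CCGGAA in 29 of 46 (63.0%, against 43.8%). In the middle 200 bp, CAGATG was found in 4 of 46 (8.70%, against 5.88%) and CACGTG in 6 of 46 (13.0%, against 4.72%). CCGGAA was found there in 9 of 46 (19.6%, interval 10.7 to 33.2%, against 15.3%). Peaks at CpG-rich promoters were not counted apart. Under the 25 Hand2 promoter peaks of members, CAGATG was found in 4 (16%, against 25.8% of 6389), CACGTG in 6 (24%, against 15.1%) and CCGGAA in 18 (72%, against 34.7%).

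The longest pyrimidine run within 20 bp of the 5′ end was taken as a measure of the TOP element. A run of at least 8 bases was found in 28 of 80 members (35%), against 16.1% of other genes. It was found in 18 of 45 members with a Gli3 MNP promoter peak and in 10 of 35 without. Rpl32, with the longest run of the family (17 bases), had no peak in any list, and Rpl26 and Rpl4, with 14 bases each, had Gli3 peaks at +267 and +137. Long tracts were thus found on both sides, as the printed starts show. The annotated 5′ end lay within 50 bp of a RefSeq start in 39 of the 60 members compared, so a tract can be missed where the annotation begins elsewhere.

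Other genes of the translation machinery were counted in the same way. The shares to read them against are those of all genes outside the family (15.3% for Gli3 MNP and 30.0% for Hand2) and of the CpG-rich promoters among them (28.6% and 48.6%). For the mitochondrial ribosomal proteins, which build the ribosome of the organelle, a Gli3 MNP promoter peak was found at 22 of 78 genes and a Hand2 one at 35 of 78. For ribosome biogenesis factors such as Fbl and Npm1 the counts were 12 and 19 of 39, for translation initiation, elongation and release factors 26 and 33 of 70, and for RNA polymerase I and its factors 2 and 6 of 11. For the proteasome, a large complex outside translation, they were 14 and 13 of 40. Among 294 ribosomal protein pseudogenes, a Gli3 MNP peak was found at 1, Rpl19-ps3, and a Hand2 peak at 9. Hand2 peaks, whose list is by far the longer one, were more frequent than Gli3 MNP peaks in each of these lists other than the proteasome, as they were in the background, whereas at the cytosolic ribosomal protein genes Gli3 MNP peaks were more frequent (45 and 25 of 80). Whole face peaks were found at 10 of 78 mitochondrial ribosomal protein genes, 7 of 70 translation factors and 2 of 40 proteasome genes, and at 1 gene in each of the other lists. The median Gli3 MNP midpoint was +124.25 in mitochondrial ribosomal protein genes, −52.75 in biogenesis genes, +238 in translation factors and +204.25 in proteasome genes. It lay downstream of the 5′ end at 13 of 14 proteasome genes with such a peak (92.9%) and 21 of 26 translation factors (80.8%). The counts were 17 of 22 in mitochondrial ribosomal protein genes, 6 of 12 in biogenesis genes and 2 of 2 in RNA polymerase I genes. Cytosolic ribosomal genes that the naming rule leaves out included Rack1, Rpl36al and Rps3a1, each with a Gli3 MNP promoter peak, and Fau, Rpl7l1 and Rpl22l1, with none in any list.

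Near the 1 kb limit, Rpl15 had the outermost Gli3 MNP midpoint inside it (+962), with a peak that began at +297 and ended at +1627, while its whole face peak fell just outside (+1092); Nkiras1 had its 5′ end nearer to both. Rpl41 (+1478.5) and Rps14 (+1637.5) had the nearest Gli3 MNP peaks outside, with the 5′ ends of Zc3h10 and Ndst1 nearer to the respective midpoints. For Hand2, the outermost peak inside was that of Rpl38 (+793) and the nearest outside that of Rps10 (+1125). The 5′ end of RPS10-NUDT3 was nearer to the midpoint of the Rps10 peak.

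Each entry of the lists also names the peaks of either replicate that were merged into it. At members, the Gli3 MNP promoter peak joined more than 1 peak of replicate 1 at 30 of 45 (66.7%, against 62.1% at other genes) and of replicate 2 at 8 of 45 (17.8%, against 23.0%). Replicate 1 had peak numbers up to 19518 and replicate 2 up to 6394. How many peaks of replicate 1 did not reach the shared list was not counted.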

How the data were processed

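The authors aligned single-end 75 bp reads to mm10 (GRCm38) with bwa and, using bedtools, joined the peaks found in both replicates. BWA, bedtools and HOMER also stand in the submitters' processing notes, without versions. The caller of the replicate peaks was not given in the sources used here. The deposited lists hold start and end positions and merged peak names, with no score, signal or count, so peaks could not be ranked by strength. No value column of a sample was left unused (0 such columns).

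The deposited 0-based starts were converted to 1-based positions and compared with GENCODE vM21 genes, and sequences were taken from the GRCm38.p6 reference and RefSeq. For genes with several promoter peaks the nearest was used for position, width and overlap. Shares carry 95% Wilson intervals. Members, lists and motifs were chosen with earlier results of these data known, so counts stand beside the background and no p-value was computed. Genes named were members by combination of lists, with the 5 widest or nearest peaks, with Gli 8-mers, near the 1 kb limit, or restricted copies, and others were chosen after their values were seen. Some genes and sequences that these rules select are not reported here. Alternatives were other windows, peak widths, overlaps, gene sets and starts. The programs were tested on simulated data, in which 200 of 200 planted peaks were recovered. Python 3.11.15, numpy 2.4.6, scipy 1.17.1 and matplotlib 3.10.9 were used.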

Additional observations from a re-analysis of the deposited data

How the results depend on the processing

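Gli3 MNP promoter peaks were found at a higher share of members than of other genes under all 9 alternatives, from 38.8% (the peak covers the 5′ end, against 9.83% of other genes) to 62.1% (CpG-rich promoters). With the wider peaks of each list alone (from the median width up), the shares were 42.5% for Gli3 MNP (against 10.1%) and 18.8% for Hand2 (against 19.1%). The Hand2 share of members minus that of other genes was 1.25 percentage points, and it was negative with wide peaks (−0.357), with any transcript start (−1.77) and with CpG-rich promoters (−10.6). The whole face difference was −1.62 percentage points and turned positive (0.589) where the peak covers the 5′ end. Sharing with Hand2 was 20% of members when at least 50% of the Gli3 peak had to be covered (against 41.1%) and also 20% when its midpoint had to be inside (against 43.1%). In 1000 bp promoters CCGGAA was found in 67.5% of members (against 33.5%), CAGATG in 40% (against 42.8%) and GGGCGG in 85% (against 60.3%). In other CpG-rich promoters these shares were 50.8%, 32.6% and 93.5%, so that against this class the directions of CAGATG and GGGCGG were the opposite. In the 1000 bp window GACCACCC was found in 1 of 80 members (1.25%, against 3.03% of other promoters and 3.75% of CpG-rich ones). GACCTCCC was found there in 6 of 80 (7.5%, against 4.65% and 5.68%). The median Gli3 position of +314 was +114.5 from the nearest transcript start, which by its construction takes the closest of several starts. Autosomes only, the nearest transcript start and the RefSeq start were chosen after seeing the data.

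No paired analysis was possible because each list merges both replicates, and for the same reason leaving out a replicate could not be run. Without scores, a stricter threshold could not be set, and width stood in for it. The error between embryos, the depth and the mock signal at these promoters are unknown here.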
